A study of Bos taurus with 2 samples.

Results

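CRLF2, CSF2RA and IL3RA are 3 cytokine receptor genes that lie next to each other in the pseudoautosomal region (PAR) of the cattle Y-chromosome. They were taken by name and position, with no methylation value in the rule but with earlier results of these data known, and are 3 of 238 protein-coding genes annotated on the chromosome and of 36 in the PAR. All CpG sites inside the genes or within 1 kb of them were used, 3484 sites of 975164 on the chromosome in the PacBio file and of 975357 in the ONT file. CRLF2 held 549 of these sites, CSF2RA 2112 and IL3RA 823, and every one had at least 10 PacBio reads.

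The data are CpG methylation calls on genomic DNA labelled as lung, from the male F1 fetus of a Wagyu sire and a Charolais dam whose Y-chromosome was assembled. One library was read as PacBio HiFi and the other as Oxford Nanopore (ONT), so the 2 groups are platforms and there was no second animal, tissue or treatment. With 1 library per platform no test across samples was possible, and no replicate error exists for any value. The PacBio intervals given below are 95% Wilson intervals, or Newcombe intervals for a difference. Each treats the mean level of a window as 1 proportion counted at the median read depth of that window. They are a rough scale for counting error only, and not the error of a mean over many CpGs. The Newcombe intervals also treat the 2 windows as independent, although windows of 1 gene can share reads. ONT values carry no read counts, so their depth is unknown and they have no interval. The lung label could not be set against tissue markers, since methylation of this chromosome was the only readout used.

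CRLF2 encodes a subunit of the receptor for thymic stromal lymphopoietin, an epithelial cytokine. CSF2RA and IL3RA encode the ligand-binding alpha chains of the receptors for GM-CSF and interleukin-3, which both signal through a common beta chain encoded elsewhere in the genome; in the lung, GM-CSF signalling is known for its part in the maturation of alveolar macrophages. The PAR is the stretch of sequence that the Y shares with the X-chromosome and through which they pair in male meiosis. In vertebrate genomes, CpG-rich 5′ ends of genes are often free of methylation while gene bodies usually carry it.

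On the ARS-UCD2.0 assembly, CRLF2 spans chrY:607727-626421 on the minus strand, so its 5′ end faces CSF2RA. CSF2RA spans chrY:641983-709113 and IL3RA chrY:714844-734090, both on the plus strand. CRLF2 is 18.7 kb long, CSF2RA 67.1 kb and IL3RA 19.2 kb. A gap of 15.6 kb separates CRLF2 from CSF2RA and 5.73 kb separates CSF2RA from IL3RA. The nearest protein-coding gene towards the short-arm end is SHOX, a homeobox gene of skeletal growth, 309 kb away, and SLC25A6, a mitochondrial ADP/ATP carrier, lies 2.13 kb beyond IL3RA. The reference gene table lists 2 RefSeq transcripts for CRLF2, 17 for CSF2RA and 4 for IL3RA, and the ends used here are the outermost ends of each gene, not those of single transcripts.

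Read depth over the genes was close to that of the PAR as a whole. The 3484 sites had a median of 73 PacBio reads and a range of 34 to 111, with gene medians of 73 for CRLF2, 67 for CSF2RA and 78 for IL3RA. The median was 78 in the PAR and 37 in the male-specific region (MSY), so the genes stood at 1.97, 1.81 and 2.11 times the MSY median in that order. In the PAR, reads from the X and the Y copy can align to the same place, and the methylation of the 2 copies cannot be told apart in these files.

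**Figure D1:**
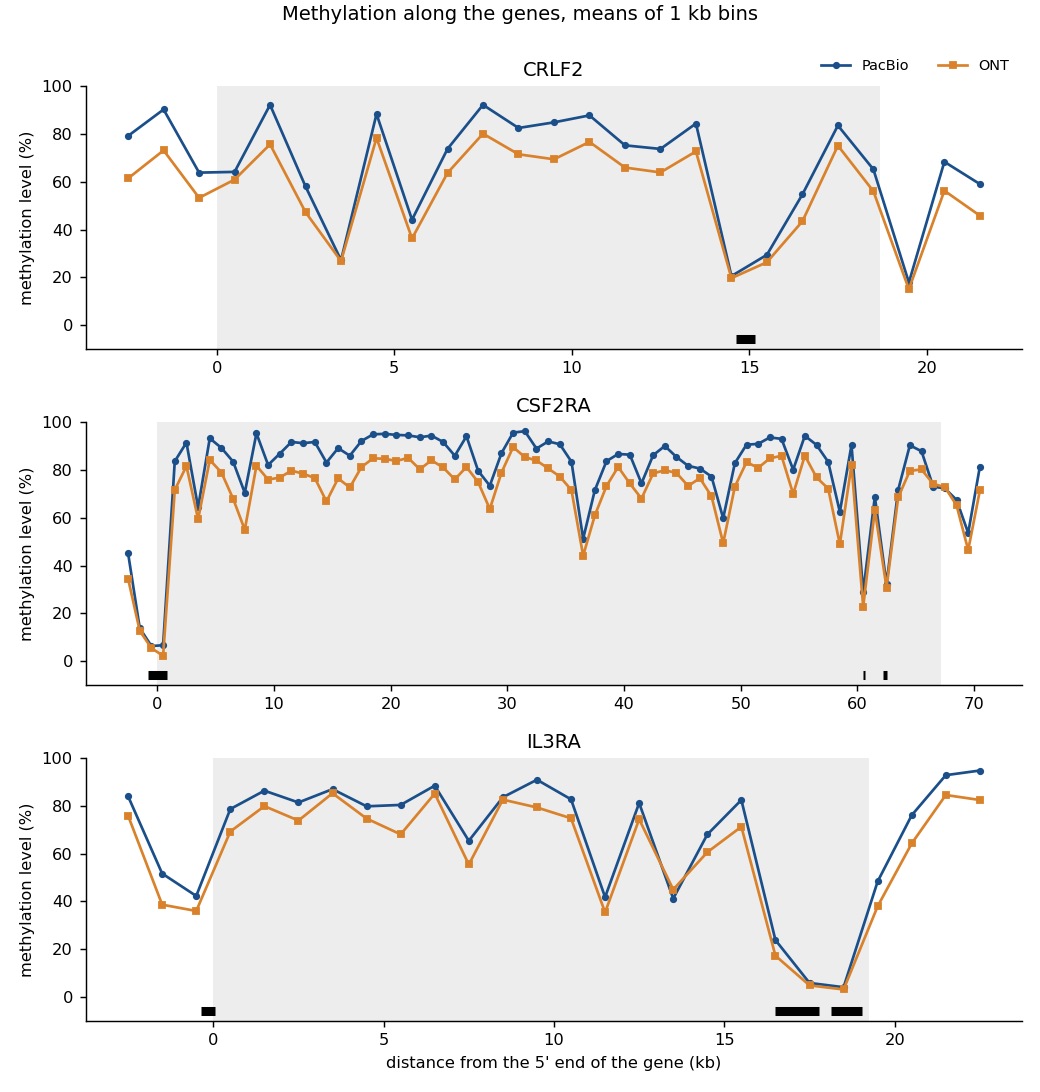
Mean methylation level in percent over bins of 1 kb along CRLF2, CSF2RA and IL3RA against the distance from the 5′ end in kb, for PacBio (circles) and ONT (squares). Grey shading marks the gene and black bars mark the 7 runs of low methylation; CSF2RA is low at its 5′ end, IL3RA is low before its 3′ end, and the lowest stretch of the CRLF2 body lies about 15 kb from its 5′ end.

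The 3 genes had different patterns although they lie side by side. CSF2RA was nearly unmethylated at its 5′ end and highly methylated in its body. An end here is the window of 1 kb on both sides of the gene end, and the body is everything more than 1 kb inside both ends. With these windows IL3RA was low at its 3′ end, and neither end of CRLF2 differed from its body beyond the interval. With 250 bp on both sides, both ends of CRLF2 and the 5′ end of IL3RA were lower than with 1 kb. Windows on 1 side of the end went in opposite directions at the CRLF2 3′ end and at both ends of IL3RA. At the CRLF2 5′ end they stayed near the full window on PacBio (63.9% outside and 64.2% inside) and stood at 53.3% and 60.9% on ONT.

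At the 5′ end of CSF2RA the mean level over 83 CpGs was 6.42% ± 10.3 (SD over CpGs) on PacBio and 3.75% ± 7.89 on ONT. Its body of 1937 CpGs averaged 82.8% ± 20.5 and 73.4% ± 19.3. The 5′ end was therefore lower than the body by a difference of -76.4 percentage points on PacBio (interval -84.5 to -62.7) and -69.6 on ONT. Of its 83 end CpGs, 76 were below 20% on PacBio and 80 on ONT, and none exceeded 80% on either. The 3′ end of CSF2RA averaged 72.0% ± 17.2 over 92 CpGs on PacBio and 73.4% ± 13.9 on ONT. Relative to the body that was -10.9 points on PacBio, with an interval of -25.4 to 3.59 that includes 0, and 0.015 points on ONT.

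The IL3RA body averaged 58.4% ± 35.3 over 622 CpGs on PacBio and 52.5% ± 32.4 on ONT. Its 3′ end stood at 19.5% ± 28.1 over 122 CpGs on PacBio and 15.2% ± 21.9 on ONT. The 3′ end was lower than the body by a difference of -38.9 points on PacBio (interval -51.4 to -23.9) and -37.3 on ONT. The 5′ end of IL3RA averaged 58.9% ± 30.5 over 79 CpGs on PacBio and 51.2% ± 28.4 on ONT, so it differed from the body by 0.51 points (interval -15.3 to 16.1) and -1.33 points. Within IL3RA the 5′ end exceeded the 3′ end by 39.4 points on PacBio (interval 23.7 to 52.6) and 35.97 on ONT. That order turned with the window. With 250 bp on both sides the 5′ end stood at 13.9% and the 3′ end at 39.5% on PacBio (ONT 9.22% and 30.5%), and with only the kilobase outside the gene they stood at 42.3% and 63.6% (ONT 36.02% and 50.1%).

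CRLF2 averaged 64.0% ± 29.7 at its 5′ end (49 CpGs), 65.6% ± 32.9 in its body (452 CpGs) and 61.6% ± 30.05 at its 3′ end (48 CpGs) on PacBio. The ONT means were 57.7% ± 23.2, 56.5% ± 27.8 and 53.4% ± 26.8. The 5′ end differed from the body by -1.53 points on PacBio (interval -16.5 to 13.7) and 1.13 on ONT, and the 3′ end by -3.99 (interval -19.0 to 11.4) and -3.10. Neither interval excluded 0, and each left room for a difference of more than 10 points either way.

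Among the 3 genes, the 5′ ends of CRLF2 (interval 53.3 to 74.3%) and IL3RA (47.0 to 70.1%) overlapped in their PacBio intervals, while CSF2RA (2.46 to 15.0%) stood below both. At the 3′ end the order was CSF2RA (59.8 to 82.2%), CRLF2 (50.6 to 71.9%) and IL3RA (12.02 to 29.3%), with only the first 2 overlapping. In the body CSF2RA (72.0 to 89.8%) overlapped with CRLF2 (54.6 to 76.1%) but not with IL3RA (47.2 to 68.5%).

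**Figure D2:**
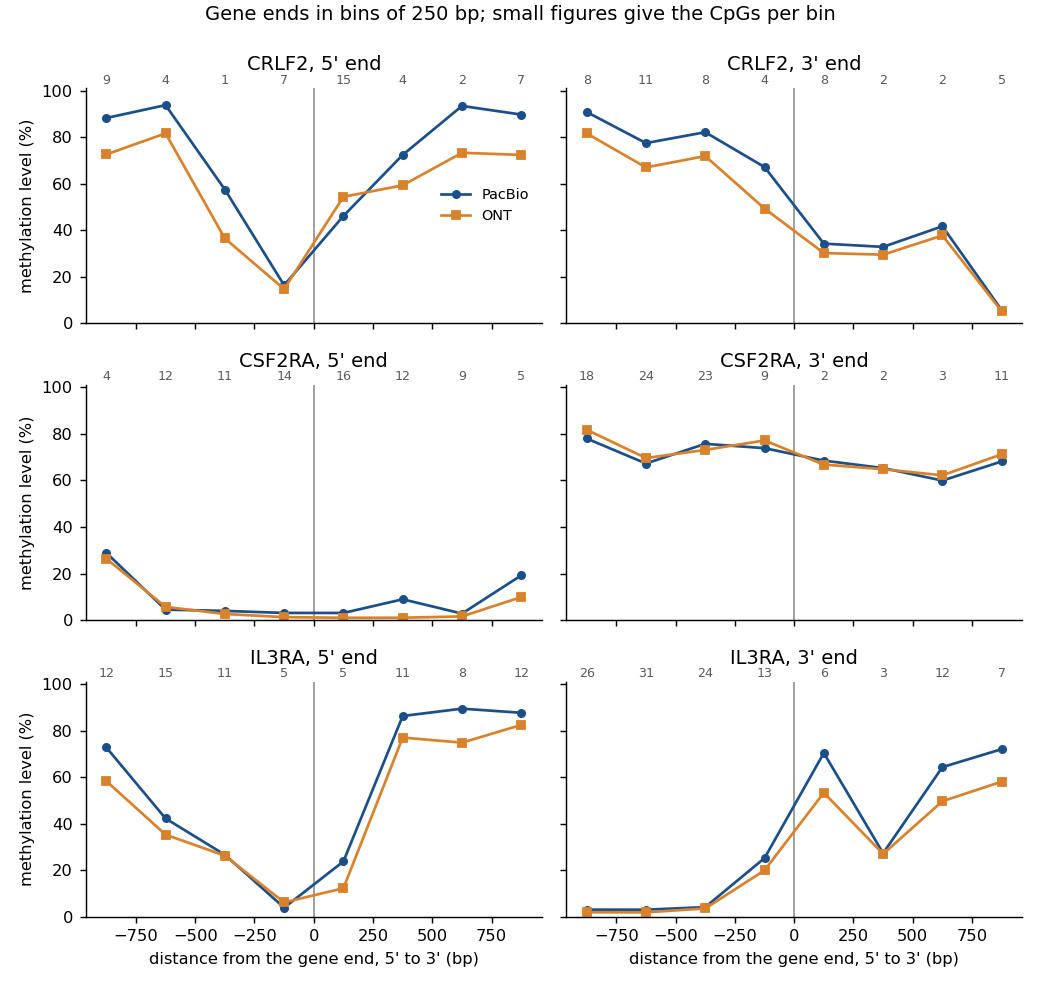
Mean methylation level in percent in bins of 250 bp around the 5′ and 3′ ends of the 3 genes, for PacBio (circles) and ONT (squares), with the number of CpGs in each bin above it. The vertical line is the gene end, negative distances lie upstream of it, and the bin before the 5′ end is low in CRLF2 (16.4% on PacBio) and IL3RA (3.92%) although the full windows are not.

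The 1 kb windows of CRLF2 and IL3RA joined stretches of unlike level. The distances in bp that follow rest on the constants used to place the CpGs on the assembly, which were checked only to within about 500 bp. In the 250 bp just upstream of the IL3RA 5′ end, 5 CpGs averaged 3.92% on PacBio and 6.18% on ONT, and the next 250 bp inside the gene held 5 CpGs at 23.8% and 12.3%. From 250 to 500 bp inside, 11 CpGs stood at 86.3% and 77.0%. The kilobase outside the gene averaged 42.3% on PacBio and the first kilobase inside 78.7%. PacBio depth fell to a median of 34 reads at the 8 CpGs between 500 and 750 bp inside the gene, against 69 reads in the bins on both sides, and those 8 CpGs averaged 89.4%.

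CRLF2 had a narrower dip at its 5′ end. The 7 CpGs in the last 250 bp upstream averaged 16.4% on PacBio and 14.7% on ONT, and the 15 CpGs in the first 250 bp of the gene 46.1% and 54.4%. Beyond 500 bp on either side, the bins stood between 88.2% and 93.8% on PacBio. At the 3′ end of CRLF2 the level changed across the gene boundary, with 80.8% in the last kilobase of the gene and 26.6% in the kilobase outside it (ONT 69.7% and 23.6%). The 5 CpGs between 750 and 1000 bp beyond that end averaged 5.66% and 5.20%.

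The 3′ end of IL3RA changed in the opposite sense. The last kilobase inside the gene averaged 6.40% over 94 CpGs on PacBio (4.84% on ONT), and the kilobase outside averaged 63.6% over 28 CpGs (50.1% on ONT). The low level of the IL3RA 3′ window thus came from inside the gene. CSF2RA showed no such step at its 3′ end, with 73.3% inside and 66.5% outside on PacBio, and its 5′ end was low on both sides, with 6.24% outside and 6.60% inside.

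Among protein-coding genes with at least 5 CpGs in the window, a 5′ end below 20% was common in the PAR and less so over the chromosome as a whole. Of the 3 receptor genes 1, CSF2RA, had such a 5′ end, on both platforms. In the PAR 25 of 36 genes did (69.4% on PacBio and 69.4% on ONT), and on the chromosome 33 of 235 (14.0%) on PacBio and 35 (14.9%) on ONT. Ordered from the lowest, CSF2RA was number 12 of the 36 PAR 5′ ends on PacBio, IL3RA 30 and CRLF2 31, where the PAR median was 9.22%. On ONT they were number 14, 30 and 31.

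A low 3′ end was rare. IL3RA was the only 1 of the 3 with a 3′ window below 20%, a state shared by 2 of 36 PAR genes (5.56% on PacBio and 5.56% on ONT) and by 3 of 236 on the chromosome (1.27% on PacBio and 1.27% on ONT). It was number 2 in the PAR after SHOX (5.22% on PacBio) and number 3 on the chromosome, and the PAR median of 3′ ends was 81.8%. At 19.5% IL3RA lay just under the threshold on PacBio, and with a window of 500 bp on both sides it stood at 20.2%, above it, which left 2 such genes on the chromosome (ONT 16.2%, still 3 genes). With 250 bp on both sides it stood at 39.5% on PacBio and 30.5% on ONT, above the threshold on both. Without the CpGs that had an ONT strand value of 0 it stood at 25.8% on PacBio and 20.6% on ONT, again above the threshold. CRLF2 was number 7 in the PAR on both platforms, and CSF2RA number 11 on PacBio and 19 on ONT. For gene bodies, IL3RA was the fourth from the lowest of 36 in the PAR on PacBio and CRLF2 number 6, and CSF2RA was number 26 of 36.

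**Figure D3:**
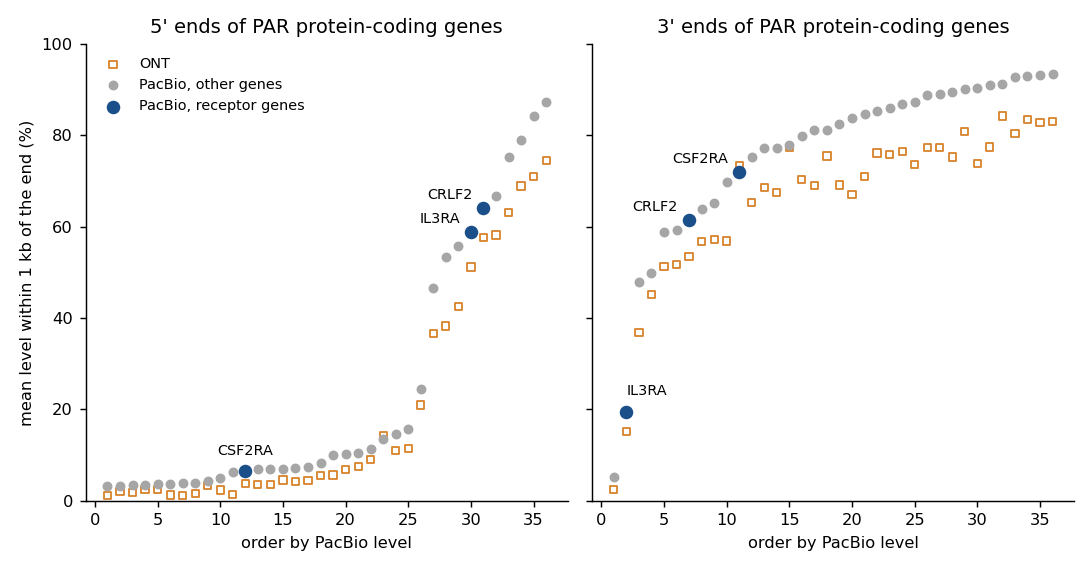
Mean level within 1 kb of the 5′ end (left) and 3′ end (right) of the 36 protein-coding genes of the PAR, in percent, ordered by the PacBio level; filled circles are PacBio, blue for the receptor genes, and open squares are ONT. On the left CSF2RA lies on the low plateau and IL3RA and CRLF2 on the rise at its right, and on the right IL3RA is the second from the lowest.

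Single CpGs below 20% made up 475 of the 3484 sites on PacBio and 483 on ONT. These are 13.6% and 13.9% of the sites, against 7.91% and 8.45% in the PAR and 8.53% and 9.91% on the chromosome. The genes differed, with 30.3% of the sites of IL3RA (249), 16.2% of those of CRLF2 (89) and 6.49% of those of CSF2RA (137) below 20% on PacBio, the last of them under the share of the PAR. The lowest CpG of CSF2RA lay 1 bp inside its 5′ end at a score of 2.2% with 1 modified read of 64, a level shared with 1 other site of the gene. The lowest of IL3RA lay 17005 bp from its 5′ end at 2.1% with 1 modified read of 75, and the lowest of CRLF2 14836 bp from its 5′ end at 2.6% with 1 of 67. ONT gave 0.63%, 1.41% and 1.93% at those 3 sites.

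The highest single CpGs all lay in the bodies. They scored 97.3% in CSF2RA (69 modified reads of 70), 97.1% in CRLF2 (69 of 71) and 96.6% in IL3RA (78 of 80). ONT gave 91.2% at the CRLF2 site and 92.0% at the IL3RA site. At the CSF2RA site it gave 74.5%, the mean of 53.3% on the plus strand and 95.7% on the minus strand.

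A run of low methylation was taken as at least 10 consecutive CpGs below 20% on PacBio, with runs joined across up to 2 CpGs. The 3 genes held 7 of the 125 runs in the PAR and of the 220 on the chromosome. They covered 27.0% of the CpGs of IL3RA, 5.83% of those of CRLF2 and 4.97% of those of CSF2RA. The same share was not computed for the PAR or the chromosome, so these values have no background beside them. The 5′ ends of CSF2RA and IL3RA lay inside a run and that of CRLF2 did not, where 26 of 36 PAR genes (72.2%) and 34 of 238 on the chromosome (14.3%) had their 5′ end in one.

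The run at the CSF2RA 5′ end, chrY:641197-642793, reached from 786 bp upstream to 810 bp inside the gene. It held 78 CpGs that averaged 4.55% ± 5.70 on PacBio and 2.47% ± 4.64 on ONT. The 10 CpGs on its upstream side averaged 36.4% and the 10 on its downstream side 55.9% on PacBio. Near the other end of CSF2RA there were 2 short runs. The first, at chrY:702444-702652, had 16 CpGs at 4.78% on PacBio and 2.37% on ONT and lay 60.5 to 60.7 kb into the gene. The other, at chrY:704168-704486, had 11 CpGs at 9.87% on PacBio and 16.3% on ONT, and 5 of its CpGs were at 20% or more on ONT.

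IL3RA held the run with the most CpGs of the 3 genes. It lay at chrY:731339-732628, 16.5 to 17.8 kb from the 5′ end, and its 119 CpGs averaged 3.34% ± 1.56 on PacBio and 2.25% ± 2.66 on ONT. A further run of 93 CpGs at chrY:732965-733873 averaged 3.71% and 2.73% and ended 217 bp before the 3′ end of the gene. The CpGs that bordered the space between them stood at 61.8% and 62.2% on PacBio. CpGs were dense in both, at 92.2 and 102.3 per kb, where the gene with its flanks held 38.7 per kb. The IL3RA run at the 5′ end, chrY:714490-714891, was the smallest of the 7 with 10 CpGs, from 354 bp upstream to 47 bp inside, at 7.83% and 9.16%.

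The single run of CRLF2, chrY:611257-611784, lay in the body, 14.6 to 15.2 kb from the 5′ end and 3.53 kb or more inside the 3′ end. Its 32 CpGs averaged 4.44% ± 2.95 on PacBio and 5.85% ± 3.47 on ONT, and none reached 20% on ONT. The 10 CpGs on the side of lower coordinates averaged 47.4% and the 10 on the other side 26.6% on PacBio.

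CpG clusters, at least 20 CpGs with neighbours at most 50 bp apart, differed in level between the genes. CSF2RA held 19 clusters, IL3RA 9 and CRLF2 3. In CSF2RA 12 of 19 were above 80% on PacBio and 3 below 20% (8 and 3 on ONT), and these 3 were both clusters of the 5′ end and 1 at 60.6 kb in the body. In IL3RA 3 of 9 were below 20%, at 16.9, 17.5 and 18.7 kb from the 5′ end, and 1 was above 80%. In CRLF2 2 of 3 were below 20% on PacBio, of which the cluster at 3.56 kb stood at 17.9% on PacBio and 20.3% on ONT, and none was above 80%. Over the 3 genes 25.8% of the 31 clusters were below 20% and 41.9% above 80% on PacBio, and among the 467 clusters of the PAR the shares were 17.6% and 52.7%. On ONT the shares were 22.6% and 29.0% in the 3 genes and 17.8% and 27.0% in the PAR, so the order of the shares above 80% was the other way round.

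CpGs of the IL3RA body averaged 38.3% inside clusters and 77.0% outside them on PacBio (ONT 34.0% and 69.7%). For the CRLF2 body the values were 20.4% and 74.0% (ONT 19.7% and 63.4%). The CSF2RA body differed less, with 77.0% inside clusters and 85.0% outside (ONT 69.0% and 75.0%).

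**Figure D4:**
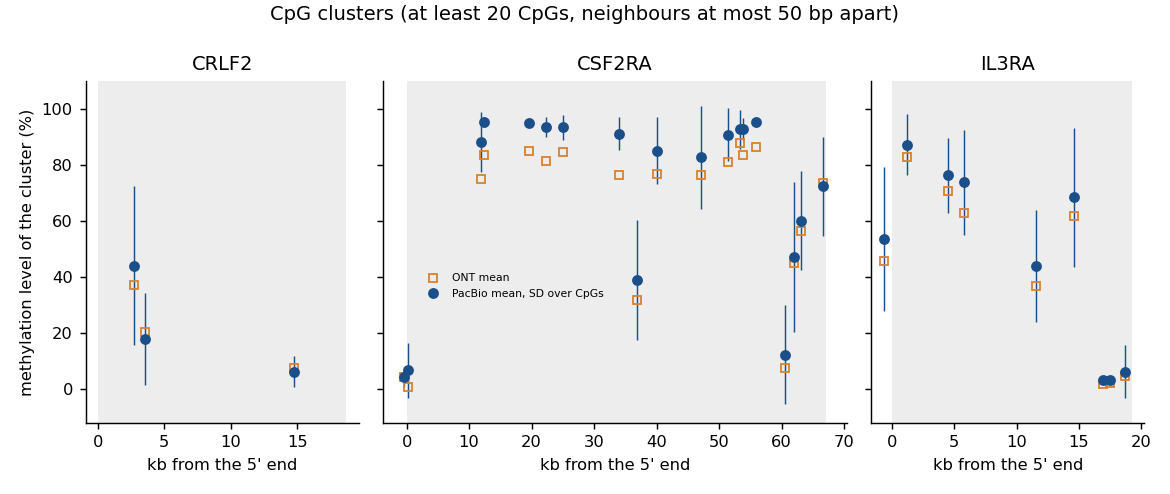
Mean level of each of the 31 CpG clusters in percent against its distance from the 5′ end of its gene in kb; circles are PacBio means with the SD over the CpGs of the cluster as bars, squares are ONT means, and grey shading marks the gene. Clusters of the CSF2RA body lie mostly above 80% up to about 56 kb, and the clusters below 20% on PacBio lie at the CSF2RA 5′ end, at 60.6 kb in CSF2RA, beyond 16 kb in IL3RA and at 3.56 and 14.8 kb in CRLF2.

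The body of CSF2RA was not even along its length. Of its 65 bins of 1 kb, 51 were above 80% on PacBio and 24 on ONT, and the lowest bin stood at 28.9% and 22.8%. From 12 to 36 kb the 728 CpGs averaged 89.6% on PacBio and 78.5% on ONT. From 60 to 66 kb the 242 CpGs averaged 58.6% and 53.7%, and both short runs lay there. Of the 16 whole bins of the CRLF2 body 7 were above 80% on PacBio and 1 on ONT, and of the 17 of IL3RA 10 and 3 were.

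PacBio depth rose in the middle of CSF2RA. At chrY:677295-691762, 35.3 to 49.8 kb from the 5′ end, each of the 363 CpGs had at least 90 reads, with a median of 105 or 1.35 times the PAR median. These CpGs averaged 78.4% ± 21.1 on PacBio and 70.1% ± 19.6 on ONT. The other 1574 body CpGs had a median of 67 reads and averaged 83.9% ± 20.2 and 74.1% ± 19.1. The part of the added reads in the level was not tested.

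**Figure D5:**
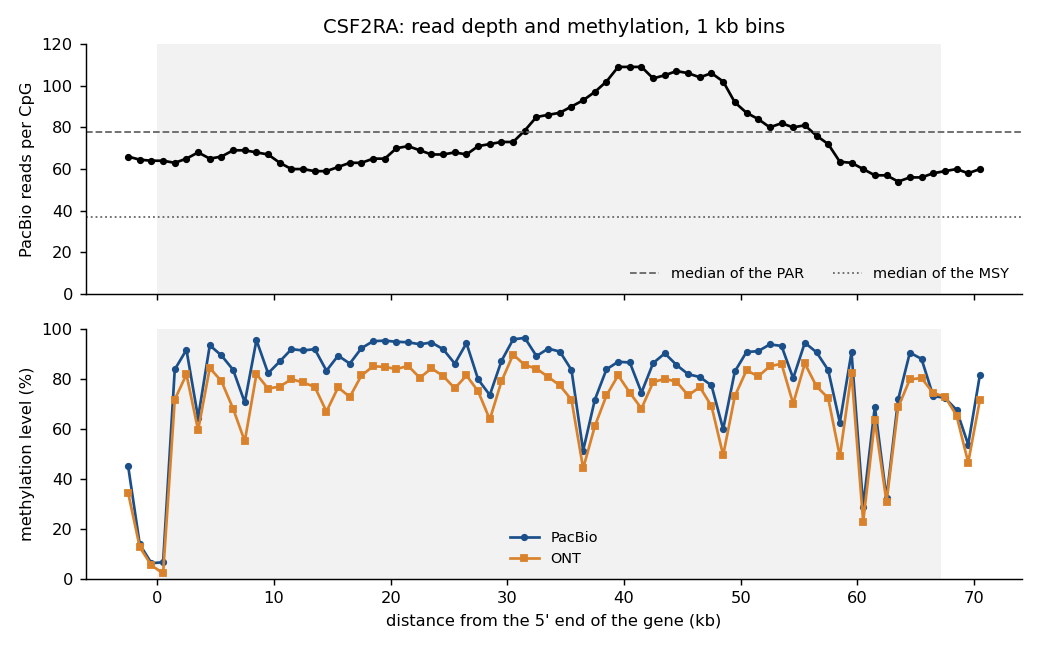
Median PacBio reads per CpG (top) and mean methylation level in percent (bottom; circles PacBio, squares ONT) in bins of 1 kb along CSF2RA, with grey shading for the gene and lines at the PAR median of 78 reads and the MSY median of 37 reads. Depth exceeds the PAR median between about 32 and 56 kb, and the low level at the 5′ end lies outside that stretch.

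ONT levels were lower than PacBio levels in all 3 genes, as in the PAR. The mean difference, ONT minus PacBio, was -8.72 ± 11.9 points in CRLF2, -8.73 ± 10.9 in CSF2RA and -5.82 ± 10.8 in IL3RA (SD over CpGs), and -9.86 in the PAR. ONT was the lower platform at 81.1% of the 3484 sites. By PacBio level, the 475 sites below 20% differed by 0.95 points on average, the 165 sites from 20 to 40% by -3.06, the 345 sites from 40 to 60% by -1.01, the 397 sites from 60 to 80% by -7.52 and the 2102 sites from 80% up by -11.7. An exception was the 3′ end of CSF2RA, where ONT exceeded PacBio by 1.41 ± 12.1 points over 92 CpGs.

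Across the 3484 CpGs the platforms gave a Pearson correlation of 0.94 and a Spearman correlation of 0.81. These are descriptions across CpGs of 1 animal's DNA, which are not independent replicates. Of the sites below 20% on PacBio 91.4% were below 20% on ONT, and of those on ONT 89.9% were below 20% on PacBio, 434 sites in both. ONT listed 0 in at least 1 strand row at 172 of the 3484 sites, against 4281 of 136359 in the PAR and 33963 of 974748 on the chromosome. By gene these were 108 of 823 sites in IL3RA, 57 of 2112 in CSF2RA and 7 of 549 in CRLF2. Whether such a row is a measured 0 or a site without passing calls cannot be told from the file. At the CSF2RA 5′ end 47 of 83 CpGs had such a row, and without them the ONT level was 7.34% in place of 3.75%, with a difference from the body of -66.4 points. Leaving out sites for a strand value of 0 selects against low ONT levels, and the 47 sites averaged 4.14% on PacBio. At the IL3RA 3′ end 34 of 122 CpGs had such a row and averaged 3.21% on PacBio. Without them the end stood at 20.6% on ONT in place of 15.2% and at 25.8% on PacBio in place of 19.5%, above 20% on both. The difference from the body, also without such CpGs, was then -38.7 points on ONT and -39.8 on PacBio.

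Likeness to other genes was measured as the Euclidean distance in 6 values, the levels of the 5′ end, body and 3′ end on both platforms, against 164 genes. CSF2RA was nearest to 3 PAR genes, PUDP (a phosphatase of modified nucleotides) at 8.66 points, DHRSX (a dehydrogenase/reductase) at 9.88 and LOC101902122 at 10.2. CRLF2 was nearest to 3 copies of TSPY3, a testis-specific gene family of the MSY, at 13.0 to 16.1 points. IL3RA had no gene as near, and the first 3 were a pair of HSFY copies at 35.9 and 39.5 points and ZNF280B at 40.5. The body levels of these HSFY copies rest on only 5 and 6 CpGs, against 622 in IL3RA. CRLF2 and IL3RA were 58.0 points apart, CRLF2 and CSF2RA 85.5, and CSF2RA and IL3RA 110 points.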

How the data were processed

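The authors deposited 1 PacBio and 1 ONT file. For PacBio, the deposited values are a methylation percent per CpG and counts of reads, made with Primrose, pbmm2 and aligned_bam_to_cpg_scores. For ONT, the authors gave a percent per strand without counts, from Dorado with a model that calls 5hmC and 5mC, Winnowmap and modbam2bed with thresholds of 20% and 80%, and the mean of both strands was used. Whether that percent counts 5mC alone or both was not given in the sources used here. PacBio starts were mirrored and ONT starts shifted by a constant to reach ARS-UCD2.0 positions. As a check, the mean PacBio level within 500 bp of 32 other PAR 5′ ends was lowest without a further shift (21.5%, against 22.8% and 26.6% at shifts of 500 bp to either side and 69.8 to 76.4% at shifts of 3 kb or more), so the check does not resolve shifts of under about 500 bp. Gene coordinates and strands came from the annotation table of the study.

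CpGs with at least 10 PacBio reads were averaged unweighted with Python 3.11.15, pandas 2.3.3 and scipy 1.17.1, and windows and runs were tested on simulated data. The PacBio file held 42078898 read observations over CpGs, with a median of 40 per CpG. The rule for the members used no methylation value, but members, gene groups and thresholds were chosen with earlier results of these data known. The genes named beside the members were the nearest on each outer side and the 3 most alike in the 6 levels. Other coverage minimums, windows, strands, weights, thresholds and run rules were tried. No sequence was used.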

Additional observations from a re-analysis of the deposited data

Results flagged for a closer look

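The sign of 3 contrasts differed between the PacBio and the ONT library, with 1 library each, and the difference between platforms was not tested. The 3′ end minus the body of CSF2RA was -10.9 percentage points on PacBio and 0.015 on ONT. The 5′ end minus the body was -1.53 on PacBio and 1.13 on ONT in CRLF2, and 0.51 on PacBio and -1.33 on ONT in IL3RA.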

How the results depend on the processing

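Of 203 recomputed values 167 stayed within the interval or tolerance of the reported one (10 points for ONT, 1.5 times for counts), 35 moved further and 1, past its interval as reported, reversed. Coverage minimums of 4 and 20 reads added or removed no CpG of the 3 genes. The end-minus-body contrasts and platform differences could not change under them, and those values are counted among the 167. Among the end-minus-body contrasts the sign changed in 24 recomputed values, of which 23 were of contrasts reported as near 0 and not past their interval or tolerance (7 for the 3′ end of CSF2RA on ONT, the others in CRLF2 and IL3RA). Neither contrast of CSF2RA and none of the platform differences of the 3 genes moved beyond these bounds under any alternative tried. The platforms were paired only CpG by CpG, and no paired test across samples was possible because each platform has 1 library. With only the kilobase outside the gene, the 3′ end minus the body of IL3RA reversed to 5.16 points on PacBio and moved to -2.42 on ONT, since the low CpGs lie inside the gene; with only the kilobase inside it was -52.0 and -47.7, with body CpGs outside clusters -57.5 and -54.4, and with 250 bp on both sides -18.9 and -22.0. For CRLF2 the same contrast was -39.0 on PacBio and -32.9 on ONT outside, 15.2 and 13.2 inside, and -20.3 and -20.0 with 250 bp. The 5′ end minus the body of CRLF2 became -22.8 on PacBio and -12.4 on ONT with 500 bp, and -28.9 and -14.8 with 250 bp. For IL3RA it became -16.1 on PacBio and -16.5 on ONT outside, 20.3 and 16.8 inside, -18.1 and -18.5 against body CpGs outside clusters, -44.6 and -43.3 with 250 bp, and -15.3 and -14.1 with 500 bp, of which the PacBio value is just inside the interval of -15.3 to 16.1. The windows of 250 bp were chosen after seeing the data.

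Gene ends below the threshold on the chromosome numbered 52 (PacBio) and 67 (ONT) for the 5′ end at 30%, and 1 at 10% and 6 at 30% for the 3′ end on ONT. With runs of at least 5 CpGs the 3 genes held 15, of which CRLF2 held 6 and CSF2RA 5; CRLF2 held 3 with a level of 30%, and 3 with runs joined before the minimum was applied, a rule chosen after seeing the data. At this depth, 1 modified read of 64 allows a level of up to 8.33% at a single CpG (95% Wilson interval).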
